A study of Mus musculus with 8 samples.

Results

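The BAF complex is the mammalian SWI/SNF chromatin remodeller, and 10 genes for its subunits were followed in hearts of mouse embryos at embryonic day 9.5: the ATPases Smarca4 and Smarca2, the 3 Smarcd genes, the scaffold genes Smarcc1 and Smarcc2, the ARID genes Arid1a and Arid1b, and Pbrm1. They were found by gene symbol among the 49315 genes of the deposited count tables, and all 10 were among the 16377 genes with enough counts to be tested. Hearts of Male C57BL/6 embryos gave 4 libraries and hearts of Female C57BL/6 embryos gave 4, and no genetic change or treatment is named for either group. Sex had been read by genotyping Sry in tissue from outside the heart. No label tells whether 1 heart or several went into a library, or which embryos were littermates. The p-values therefore rest on the variation among these 8 libraries, some of which may be technical. These are whole-heart libraries, in which fewer cells of a type and less RNA per cell cannot be told apart.

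A BAF complex uses the energy of ATP to slide or evict nucleosomes and so opens or closes DNA to transcription factors. Each complex is assembled from gene families of which it takes 1 or a few members: an ATPase made by Smarca4 (Brg1) or Smarca2 (Brm), a Smarcd subunit that contacts transcription factors, a core that holds Smarcc1 and Smarcc2, and either Arid1a or Arid1b in canonical BAF or Pbrm1 with Arid2 in the variant called PBAF. In the mouse embryo Smarca4 is needed for growth of the heart wall, and Smarcd3 (Baf60c) joins the complex to cardiac transcription factors such as Gata4, Nkx2-5 and Tbx5. Smarca2 is largely dispensable for mouse development.

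Total counts per library ranged from 21778953 to 39773169 in Male libraries and from 20105913 to 51134291 in Female libraries. Male replicate 2 stood apart. On the first principal component, with 62.0% of the variance, it lay at 59.5 and the other 7 libraries between -35.0 and 15.0, and its mitochondrial share of counts (0.707%) was the lowest of the 8. The sex differences and the main levels and ratios are given below with and without it. All libraries matched their labelled sex: Xist stood at 0.340 to 0.612 CPM in Male libraries and 225 to 277 CPM in Female libraries, and 4 Y-linked genes had 228 to 2629 counts in Male and 0 to 7 in Female libraries. The libraries held heart RNA, with a summed level of 8 cardiomyocyte genes of 19435 to 33465 RPKM in Male libraries, highest in Male replicate 2, and 18260 to 25059 RPKM in Female libraries. CPM stands for counts scaled by library size and TMM factor, and RPKM is that value per kilobase of exon.

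The results turn on 2 pairs of paralogs, Smarca4 with Smarca2 and Smarcd1 with Smarcd3, and the sequences just upstream of their RefSeq starts are shown so that the members of each pair can be compared. They are from RefSeq on GRCm38.p6 and run 5′ to 3′ on the strand of the gene. Bases that fall in a counted exon are left out, so that the stretch of Smarca2 ends 110 bases and that of Smarcd3 10 bases before the RefSeq start. The RefSeq start used for Smarcd3 lies inside the counted gene, whose 5′ end on the minus strand is at 24624411. Further starts of these genes are not shown. Capitals mark the GC box GGGCGG and its reverse complement CCGCCC.
Smarca4 promoter, chr9:21615919-21616168, plus strand: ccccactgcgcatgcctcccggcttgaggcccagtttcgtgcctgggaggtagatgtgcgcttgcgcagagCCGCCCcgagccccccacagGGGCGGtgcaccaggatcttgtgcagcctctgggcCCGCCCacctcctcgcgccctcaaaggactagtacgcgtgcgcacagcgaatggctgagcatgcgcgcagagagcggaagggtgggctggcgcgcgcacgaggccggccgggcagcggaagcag
Smarca2 promoter, chr19:26604910-26605049, plus strand: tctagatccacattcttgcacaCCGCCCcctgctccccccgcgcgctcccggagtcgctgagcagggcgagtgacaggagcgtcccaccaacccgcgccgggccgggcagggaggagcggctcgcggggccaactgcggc
Smarcd1 promoter, chr15:99702037-99702286, plus strand: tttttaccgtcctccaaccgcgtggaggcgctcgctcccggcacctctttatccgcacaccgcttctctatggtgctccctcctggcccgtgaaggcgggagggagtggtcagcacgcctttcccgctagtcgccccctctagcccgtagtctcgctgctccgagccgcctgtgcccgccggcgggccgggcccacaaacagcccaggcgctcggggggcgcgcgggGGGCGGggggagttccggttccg
Smarcd3 promoter, chr5:24602013-24602252, minus strand: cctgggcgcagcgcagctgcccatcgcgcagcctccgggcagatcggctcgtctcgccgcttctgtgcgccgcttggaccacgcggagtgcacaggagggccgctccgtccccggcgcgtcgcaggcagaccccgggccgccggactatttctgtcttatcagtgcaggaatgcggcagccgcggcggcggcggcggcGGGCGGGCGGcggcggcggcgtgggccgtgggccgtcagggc
These were stretches rich in GC. Over the 250 bases before each start, the GC content was 70.8% for Smarca4, 68.4% for Smarca2, 71.2% for Smarcd1 and 76.0% for Smarcd3, against a median of 52.4% over 32841 RefSeq mouse promoters. The same windows held 25, 28, 29 and 38 CpG dinucleotides, in the same order of genes, against a median of 6. GC boxes on either strand numbered 3, 2, 1 and 2, those of Smarcd3 overlapping each other, and 32.7% of all promoters held at least 1. The CCAAT box, found on either strand in 33.9% of all promoters, was in none of the 4 windows. Neither was the TATA box TATAAA, found in 12.4% of promoters, nor the GATA motif in the form AGATAA, found in 9.99%. No other form of the GATA motif was searched. The stretch of Smarcd3 holds TTATCA, the reverse complement of TGATAA, which differs from AGATAA in its first base. Of the 28 CpG dinucleotides of Smarca2, 16 lay in the stretch shown. Whether these sequences bear on the levels of the genes was not tested.

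Of the 2 ATPase genes, RNA of Smarca4 far exceeded that of Smarca2 in these hearts. Smarca4 (chromosome 9, 21616169 to 21704230, plus strand, GRCm38) stood at 366, 703, 333 and 395 CPM in Male replicates 1 to 4 and at 388, 381, 402 and 310 CPM in Female replicates 1 to 4. Male replicate 2 was far above the rest, and the other Male libraries lay within the Female range. Smarca2 (chromosome 19, 26605050 to 26778322, plus strand) stood at 28.1, 42.0, 28.0 and 29.1 CPM in Male libraries and at 32.6, 32.8, 28.5 and 30.0 CPM in Female libraries. Here too Male replicate 2 was highest, and the sexes overlapped. Per kilobase of exon, Smarca4 averaged 63.3 ± 19.0 RPKM and Smarca2 2.20 ± 0.33 RPKM (SD, n = 8), and without Male replicate 2 they averaged 56.8 and 2.09 RPKM.

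The per-length ratio of Smarca4 to Smarca2 was 28.7, 36.9, 26.2 and 30.0 in Male replicates 1 to 4 and 26.2, 25.6, 31.0 and 22.7 in Female replicates 1 to 4, with a mean of 28.4 ± 4.34 (SD, n = 8). Smarca4 made 96.5% ± 0.48 of the summed RNA level of the 2 genes per kilobase of exon. Without Male replicate 2 the ratio was 27.2 ± 2.86 (SD, n = 7). The size of the ratio, and with it the share, depends on the length used. The exon union of Smarca2 (14269 bases) is longer than that of Smarca4 (6475 bases), while their coding lengths are close (4803 and 4851 bases). In plain counts the ratio was 12.9 ± 1.97, and per kilobase of coding sequence, a length chosen after seeing the data, 12.8 ± 1.95.

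Smarcd3 was the leading member of its family. Smarcd3 (chromosome 5, 24590818 to 24624411, minus strand) stood at 179, 113, 147 and 152 CPM in Male libraries and at 116, 175, 161 and 155 CPM in Female libraries. Male replicate 2 and Female replicate 1 were the lowest of the 8. These were also the libraries with the highest summed levels of 9 genes of foregut and pharyngeal epithelium (321 RPKM in Male replicate 2 and 252 RPKM in Female replicate 1, against 135 to 246 RPKM in the other 6) and of 5 hepatic genes (27.7 and 47.9 RPKM, against 3.86 to 12.7 RPKM). All 9 foregut genes and 4 of the 5 hepatic genes had counts in every library, and Alb was at 0 in some. Gene by gene, Male replicate 2 was the highest library for 3 of the 9 foregut genes and 2 of the 5 hepatic genes. The most abundant genes, among the foregut genes Krt8 and Krt18, weigh most in such sums. Female replicate 3 was close behind in the foregut genes, at 246 RPKM, with Smarcd3 at 161 CPM. The part of foregut or hepatic tissue in the Smarcd3 values was not tested. Smarcd1 (chromosome 15, 99702287 to 99713995, plus strand), the more broadly expressed paralog, stood at 51.8, 52.9, 52.9 and 54.0 CPM in Male libraries and at 61.0, 51.9, 53.7 and 54.2 CPM in Female libraries. Its coefficient of variation over the 8 libraries was 5.46%, the lowest of the members on this scale. Without Male replicate 2 those of Smarcc1 (5.34%) and Smarcd2 (5.60%) were below that of Smarcd1 (5.81%), and without the TMM factors Smarcd2 (4.10%) was below Smarcd1 (8.59%). Smarcd2 (chromosome 11, 106263179 to 106272972, minus strand), known for its role in granulocyte development, stood at 38.9, 46.7, 37.6 and 37.9 CPM in Male libraries and at 39.7, 37.2, 42.9 and 36.4 CPM in Female libraries.

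The per-length ratio of Smarcd1 to Smarcd3 was 0.469, 0.760, 0.582 and 0.578 in Male libraries and 0.857, 0.483, 0.542 and 0.566 in Female libraries, with a mean of 0.605 ± 0.135 (SD, n = 8). Without Male replicate 2 it was 0.582 ± 0.129 (SD, n = 7). It was below 1 in 8 of 8 libraries, and highest in Female replicate 1 and Male replicate 2. Put the other way, Smarcd3 was 1.72 ± 0.334 times Smarcd1, from 1.17 to 2.13. Smarcd3 made 50.6% ± 5.30 of the summed Smarcd level, Smarcd1 30.0% ± 3.23 and Smarcd2 19.4% ± 2.65. The share of Smarcd3 was 42.6% in both Male replicate 2 and Female replicate 1 and reached 56.2% in Male replicate 1. The family's sum was also low in the first of these libraries (51.9 and 53.0 RPKM) and highest in Male replicate 1 (62.3 RPKM). In plain counts the ratio of Smarcd1 to Smarcd3 was 0.372 and per kilobase of coding sequence 0.349.

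**Figure D1:**
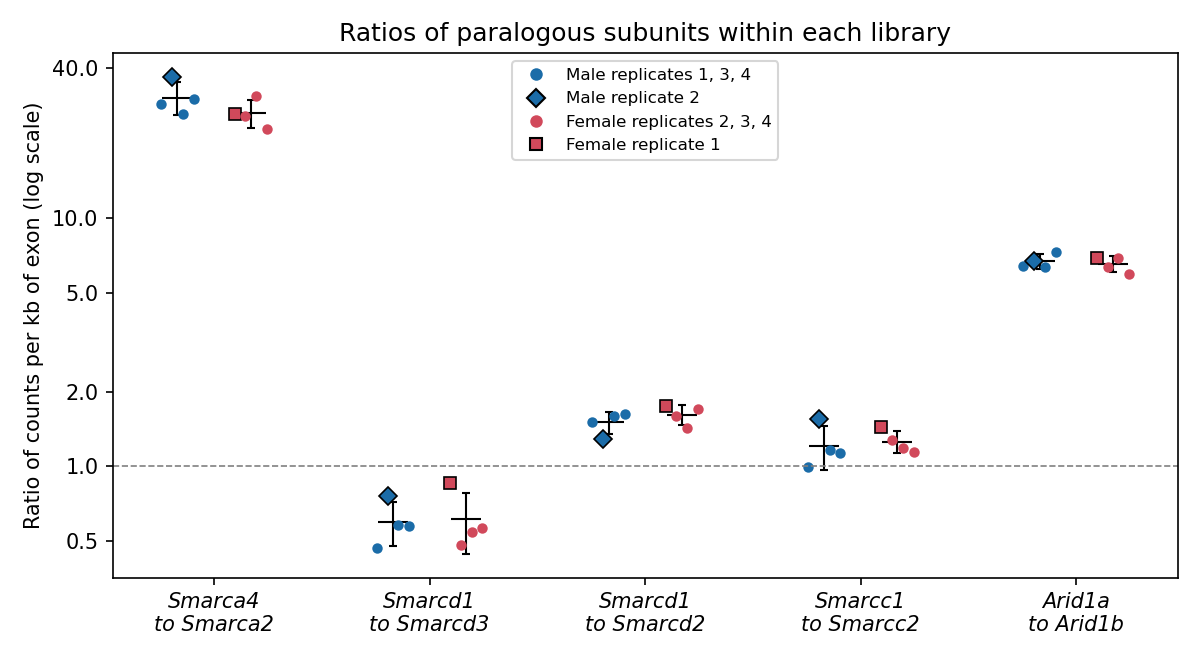
Per-length ratios of paralogs in each library, on a log axis, Male libraries left of Female libraries, with points for libraries and bars for means and SD. Smarca4 to Smarca2 lay between 22.7 and 36.9 and Smarcd1 to Smarcd3 between 0.469 and 0.857 in all 8 libraries.

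The scaffold genes Smarcc1 and Smarcc2 were closer to balance. Smarcc1 (Baf155, chromosome 9, 110117708 to 110240178, plus strand) stood at 162, 263, 172 and 176 CPM in Male libraries and at 190, 178, 168 and 168 CPM in Female libraries. Smarcc2 (Baf170, chromosome 10, 128459236 to 128490173, plus strand) stood at 104, 109, 95.1 and 99.7 CPM in Male libraries and at 85.2, 89.3, 91.3 and 94.9 CPM in Female libraries. Smarcc1 was thus raised in Male replicate 2 and Smarcc2 was not far from the rest there. The per-length ratio of Smarcc1 to Smarcc2 averaged 1.23 ± 0.180 (SD, n = 8), with 1.55 in Male replicate 2 and 0.993 in Male replicate 1, and was 1.19 ± 0.137 without Male replicate 2 (SD, n = 7) and 1.92 in plain counts.

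Arid1a far exceeded Arid1b, and the 2 kept nearly the same proportion in every library. Arid1a (chromosome 4, 133679008 to 133756769, minus strand), which carries the DNA-binding ARID subunit of canonical BAF, stood at 203, 365, 173 and 224 CPM in Male libraries and at 231, 183, 195 and 169 CPM in Female libraries. Its paralog Arid1b (chromosome 17, 4994332 to 5347656, plus strand) stood at 34.8, 60.0, 30.1 and 33.7 CPM in Male libraries and at 36.6, 31.5, 31.0 and 31.2 CPM in Female libraries. Both were highest in Male replicate 2. Their per-length ratio was 6.40, 6.68, 6.33 and 7.32 in Male libraries and 6.92, 6.37, 6.92 and 5.93 in Female libraries, a mean of 6.61 ± 0.437 (SD, n = 8). Over the 8 libraries its coefficient of variation of 6.62% was smaller than that of either gene (29.2% and 27.4%). Without Male replicate 2 those of Arid1a and Arid1b were 12.2% and 7.25%. The ratio was then 6.60 ± 0.471 (SD, n = 7), a spread relative to its mean close to that of Arid1b alone. A ratio within a library cancels what both genes share, depth included.

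Pbrm1 (Baf180, chromosome 14, 31019138 to 31121592, plus strand), the polybromo subunit that marks PBAF, was the most variable member. It stood at 149, 428, 149 and 196 CPM in Male libraries and at 225, 182, 190 and 128 CPM in Female libraries. Its coefficient of variation was 46.1% and, without Male replicate 2, 19.3%, still the highest of the 10. Arid2, which joins Pbrm1 in PBAF, stood at 79.7, 191, 67.7 and 96.8 CPM in Male libraries and at 117, 83.9, 92.0 and 63.8 CPM in Female libraries. Both genes were highest in Male replicate 2 and lowest in Female replicate 4.

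Per kilobase of exon the 10 members fell into an upper group of 8 and a pair at the bottom. After Smarca4 came Smarcd3 (29.2 ± 4.76 RPKM), Smarcc1 (23.6 ± 4.17), Pbrm1 (23.3 ± 10.7), Smarcc2 (19.1 ± 1.56), Arid1a (19.0 ± 5.54), Smarcd1 (17.1 ± 0.94) and Smarcd2 (11.0 ± 0.97, all SD, n = 8). Arid1b (2.87 ± 0.79 RPKM) and Smarca2 (2.20 ± 0.33 RPKM) were lowest. Smarca4 exceeded Smarcd3 in 8 of 8 libraries, and Smarcd1 exceeded Smarcd2 in 8 of 8 with ranges that did not overlap. The neighbours from Smarcd3 down to Smarcd1 did not separate: each exceeded the next in 5 or 6 libraries. Arid1b exceeded Smarca2 in 8 of 8, but their ranges overlapped. Among all tested genes, 94.4% lay below Smarca4 in mean RPKM, 73.6% below Smarcd2, 45.9% below Arid1b and 41.1% below Smarca2. Without Male replicate 2 the order of the means was the same but for Smarcd1 (17.191 RPKM) and Arid1a (17.156 RPKM), which changed places, and Pbrm1 averaged 19.7 RPKM. The top and the bottom of this order depend on the length used: per kilobase of coding sequence Smarcd3 (103 ± 16.8) came before Smarca4 (84.5 ± 25.3), and Smarca2 (6.53) before Arid1b (5.24).

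**Figure D2:**
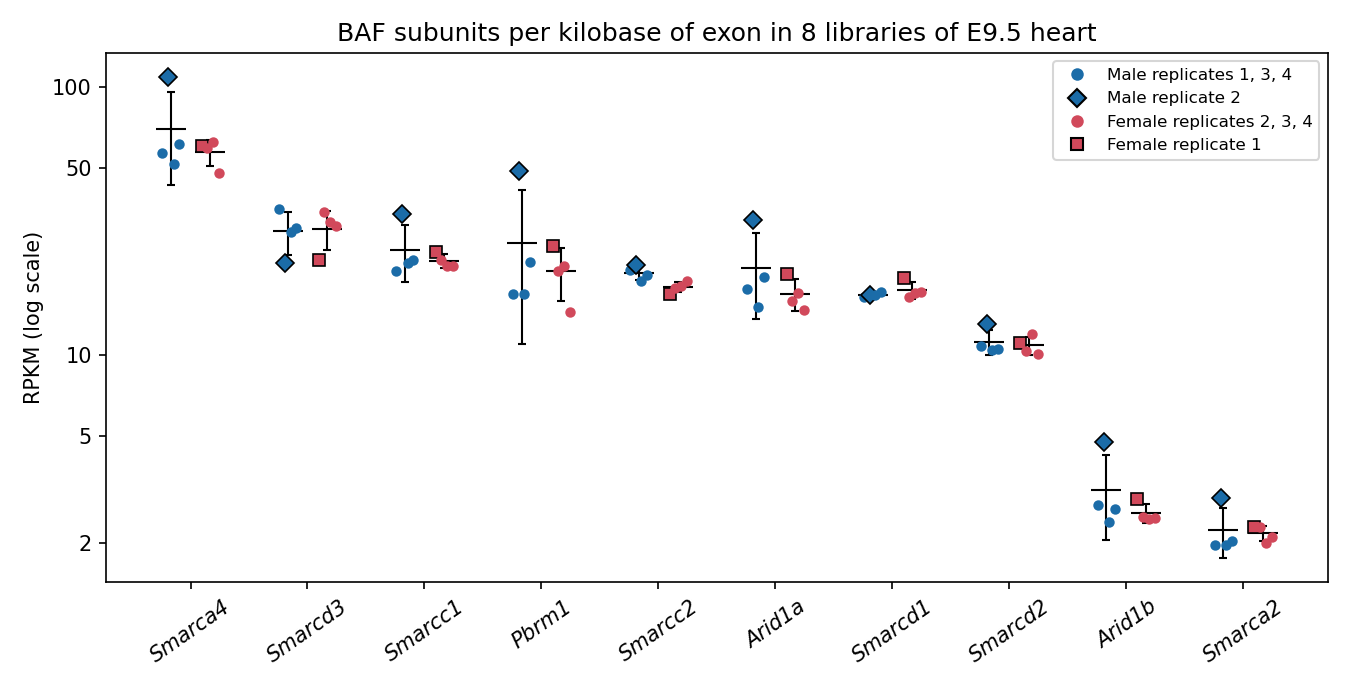
Level of each of the 10 genes in each library, in RPKM on a log axis, Male libraries left of Female libraries, with points for libraries and bars for means and SD. Smarca4 is highest at 47.8 to 109 RPKM, and Smarca2 (1.96 to 2.94 RPKM) and Arid1b (2.39 to 4.76 RPKM) are lowest.

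The study compared Male with Female hearts, and none of the 10 genes passed that test. Over all genes edgeR called 6 of 16377 at an adjusted p below 0.05 (0.0366%), and of the members 0 of 10, each with an adjusted p of 0.9995. DESeq2 and limma-voom called 0 members as well. Smarcc2 was the single member with an unadjusted p below 0.05 in any of the 3 tools, where edgeR gave 2.24% of all tested genes. It averaged 102 ± 5.85 CPM in Male libraries and 90.2 ± 4.01 CPM in Female libraries (SD, n = 4 each), with a log2 fold change of 0.18 ± 0.08 (SE, 95% interval 0.0045 to 0.35, edgeR unadjusted p = 0.0454). Its Male and Female values did not overlap, as for 2.25% of all tested genes, but in CPM without the TMM factors they did, and without Male replicate 2 the unadjusted p was 0.066.

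The intervals of the other 9 members included 0. Pbrm1 averaged 231 ± 134 CPM in Male and 181 ± 40.4 CPM in Female libraries, a log2 fold change of 0.35 (95% interval -0.42 to 1.12), and 165 CPM in Male libraries without Male replicate 2. Smarca4 averaged 449 ± 171 CPM in Male and 370 ± 41.3 CPM in Female libraries (log2 fold change 0.28, -0.23 to 0.79). Arid1a averaged 241 ± 85.2 CPM in Male and 194 ± 26.7 CPM in Female libraries (0.31, -0.18 to 0.81), and Arid1b 39.6 ± 13.7 and 32.6 ± 2.69 CPM in Male and Female libraries (0.28, -0.17 to 0.74; SD, n = 4 each). These intervals leave room for differences that the test could not detect. Smarcc1 (0.13), Smarcd2 (0.05) and Smarca2 (0.04) had smaller log2 fold changes, and Smarcd3 (-0.04) and Smarcd1 (-0.06) lay slightly lower in Male libraries.

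Male replicate 2 set most of these directions. With it, 8 of the 10 members had a higher value in Male libraries, with a median log2 fold change of 0.16, beside 8666 of 16377 genes and a median of 0.011 over all genes tested. Without it, 4 of 10 were higher in Male libraries and the median was -0.03, beside 8191 genes and 0.00048. Pbrm1 then stood at -0.14, Smarca2 at -0.13, Smarca4 at -0.02, Arid1b at 0.01, Arid1a at 0.04 and Smarcc2 at 0.14, and no member was called.

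**Figure D3:**
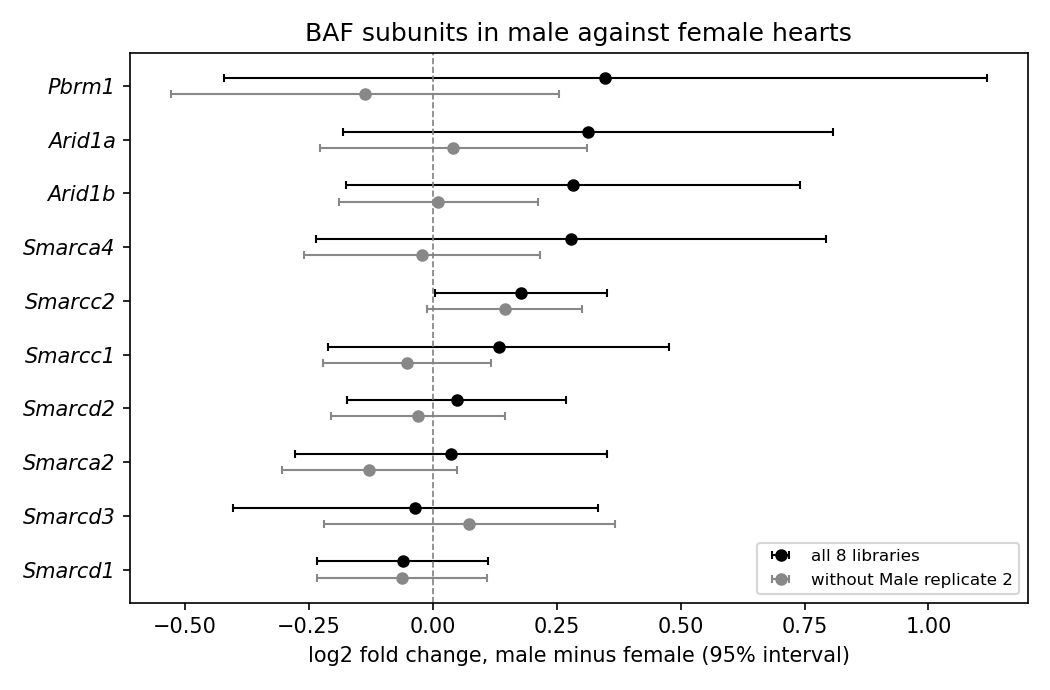
Log2 fold change, Male minus Female, of each of the 10 genes with its 95% interval derived from the edgeR fit, with all 8 libraries and without Male replicate 2. With all libraries 8 of 10 points lie above 0, and without Male replicate 2 4 of 10 do.

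Nor did the paralog ratios differ detectably between the sexes. Of 5 ratios compared by a 2-sided exact permutation test over the 70 divisions into 4 and 4, whose smallest p is 0.0286, none passed. Smarca4 to Smarca2 averaged 30.5 ± 4.61 in Male and 26.4 ± 3.44 in Female libraries (SD, n = 4 each, exact permutation p = 0.257, Benjamini-Hochberg adjusted p = 0.857). Smarcd1 to Smarcd3 averaged 0.597 ± 0.120 in Male and 0.612 ± 0.167 in Female libraries (exact permutation p = 0.914, adjusted p = 0.914). The other adjusted p-values were 0.857 each, for Smarcd1 to Smarcd2 (1.51 ± 0.151 in Male and 1.62 ± 0.143 in Female libraries), Smarcc1 to Smarcc2 (1.21 ± 0.239 and 1.26 ± 0.131 in Male and Female libraries) and Arid1a to Arid1b (6.68 ± 0.449 and 6.54 ± 0.480), all by the exact permutation test.

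The libraries differed more than the sexes did. Male replicate 2 held the highest CPM of 8 members and the lowest of 1, where it was the highest for 31.9% and the lowest for 33.4% of all tested genes, so that standing at an extreme (65.3%) was common there. Relative to the median of the other 7 libraries it stood at 2.35 times for Pbrm1, 1.91 for Arid1b, 1.87 for Arid1a, 1.84 for Smarca4, 1.53 for Smarcc1 and 1.44 for Smarca2. It stood at 1.23 times for Smarcd2, 1.15 for Smarcc2, 0.99 for Smarcd1 and 0.73 for Smarcd3. Without the TMM factors it was the highest for 6 members and the lowest for 2, beside 19.3% and 49.8% of all tested genes. The median SD of the members in log2 CPM was 0.24 with this library and 0.10 without it, beside 0.21 and 0.16 for all tested genes. The library's cardiomyocyte and foregut sums given above were the highest of the 8 libraries and its mitochondrial share the lowest. The part of these in the levels of the members was not tested.

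**Figure D4:**
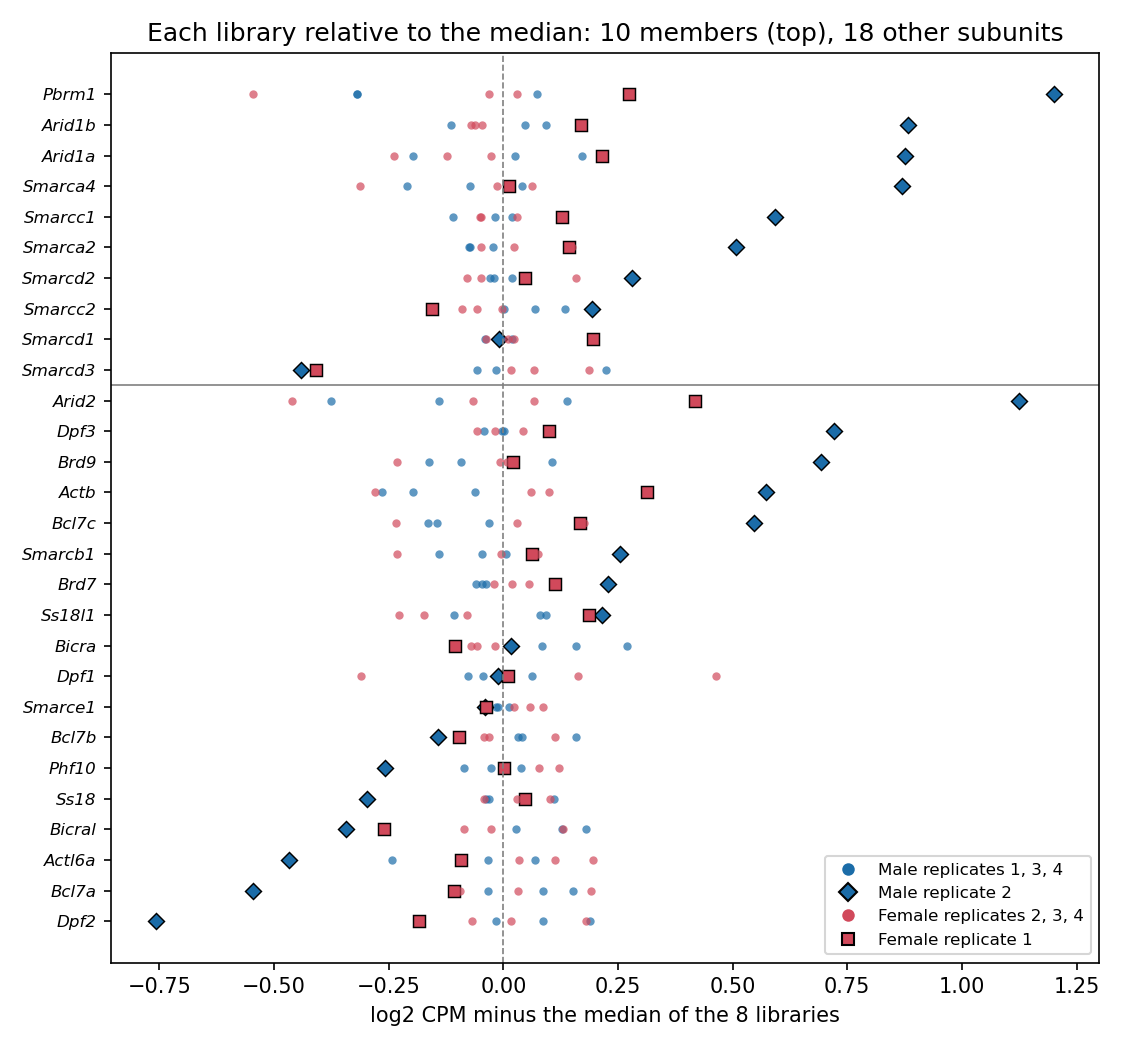
Log2 CPM of each subunit gene in each library minus the median of the 8 libraries, with the 10 genes described here above the line and 18 other subunits below it. Male libraries are blue, Female libraries red, and Male replicate 2 and Female replicate 1 have their own symbols. Male replicate 2 is highest for 8 of the 10 genes described here and lowest for 1, Smarcd3.

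Other subunits of BAF, PBAF and the noncanonical complex ncBAF, 19 genes in a list, split in Male replicate 2: it was the highest library for 8 and the lowest for 8. Arid2 (2.28 times the median of the other 7), the zinc-finger subunit Dpf3 (1.65) and the ncBAF bromodomain subunit Brd9 (1.63) were high there. Dpf2 (0.585), Bcl7a (0.67) and the actin-like Actl6a (0.706) were low. Among the PHD-finger subunits, which fill the same place in the complex, Dpf2 made 35.4% ± 4.90 of the summed level over the 8 libraries and 25.0% in Male replicate 2, and Dpf3, which is known in heart and muscle development, 16.3% ± 4.82 and 28.0%. Phf10, the PBAF member, kept 46.2% ± 1.92, and Dpf1, the neural member, 2.09% ± 0.33.

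The core subunits Smarce1 (35.3 ± 1.12 RPKM) and Smarcb1 (19.4 ± 1.99 RPKM, SD, n = 8) were in the range of the upper members. Smarce1 varied little and was at 0.965 times the median of the others in Male replicate 2. Actl6b, which replaces Actl6a in neurons, had 0, 2, 3 and 0 counts in Male libraries and 1, 1, 0 and 0 in Female libraries and was not tested, while Actl6a stood at 20.0 ± 2.80 RPKM. Ss18 made 93.2% ± 1.22 of the sum with its paralog Ss18l1. Of the 18 of these genes tested between the sexes, edgeR, DESeq2 and limma-voom each called 0, with 9 higher and 9 lower in Male libraries and a median log2 fold change of 0.01 in edgeR. The ncBAF subunit Bicra alone had an unadjusted p below 0.05 (2.94 ± 0.222 RPKM in Male and 2.57 ± 0.065 RPKM in Female libraries, SD, n = 4 each, log2 fold change 0.20 ± 0.08, SE, edgeR unadjusted p = 0.0429).

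Beside the other remodellers, Smarca4 and Chd4 were close in level, and which of them had the higher mean turned on Male replicate 2. Of 18 further remodelling ATPases, the NuRD subunit Chd4 was at 62.7 ± 3.64 RPKM, Chd7 at 19.5 ± 12.1 RPKM and the ISWI ATPase Smarca5 at 17.9 ± 1.38 RPKM (SD, n = 8), against 63.3 ± 19.0 RPKM for Smarca4. Without Male replicate 2 Smarca4 averaged 56.8 RPKM and Chd4 61.8 RPKM. Chd7, whose loss in mice disturbs heart and craniofacial development, was 3.16 times the median of the other 7 libraries in Male replicate 2, and Chd4 varied little. Of the 17 tested between the sexes, 0 were called, 11 were higher in Male libraries and the median log2 fold change was 0.10 (0 with an unadjusted p below 0.05, edgeR).

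Cardiac transcription factors, among them the partners of Smarcd3 named above, did not pass between the sexes. The 3 most abundant of the 10 listed were Nkx2-5 (332 ± 42.8 RPKM), Hand2 (88.8 ± 5.65 RPKM) and Gata4 (58.0 ± 8.06 RPKM, SD, n = 8). Of the 10, 0 were called and 0 had an unadjusted p below 0.05 (edgeR). In Male libraries 5 were higher and 5 lower, with a median log2 fold change of 0.0043. Of 9 genes studied in mouse hearts as targets of Smarca4 or Smarcd3, 0 were called, 6 were higher in Male libraries and the median was 0.28. The myosin heavy chain Myh7 stood at 7078, 8860, 5910 and 7307 CPM in Male libraries and at 4543, 5849, 5960 and 4900 CPM in Female libraries (log2 fold change 0.46 ± 0.16, SE, edgeR unadjusted p = 0.0192). Its partner Myh6 stood at 7417, 9709, 5573 and 7551 CPM in Male libraries and at 5447, 6197, 5889 and 5327 CPM in Female libraries (0.40 ± 0.17, unadjusted p = 0.0428, edgeR). In both genes Male replicate 3 lay within the Female range. The pair is similar in sequence, so the split of reads between them is uncertain. Gja5 and Hspg2 also had an unadjusted p below 0.05 (0.0389 and 0.0017, edgeR), and are named after their values were seen. The cell cycle inhibitor Cdkn1c stood at 1061 ± 176 RPKM over the 8 libraries, with a log2 fold change of 0.19 ± 0.15 (SE). Without Male replicate 2, 9 of the 9 were higher in Male libraries, with a median of 0.20, beside 8191 of 16377 genes tested. In the same fit 0 of 9 foregut genes (median -1.44) and 0 of 4 tested hepatic genes (median -1.81) were higher in Male libraries. Of 8 cardiomyocyte genes (median -0.03) 2 were higher, Myh6 and Myh7, which are also among the 9 genes studied as targets. Other lists leaned to Male libraries in this fit: 6 of 6 erythroid genes (median 0.15) and 7 of 8 endocardial or endothelial genes (0.09). So did 4 of 5 epicardial genes (0.27) and 7 of the 10 cardiac transcription factors (0.03). Of 3 tested neural genes 2 were higher, and of 3 tested mesenchyme or neural crest genes 1. The part of these tissues in the values of the 9 genes was not tested.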

How the data were processed

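Messenger RNA of 4 Male and 4 Female libraries was sequenced after Trizol extraction and preparation with an Illumina TruSeq kit, per the labels' protocols. The submitters' processing notes name the genome build GRCm38 and the tools Trimmomatic 0.36, STAR 2.5.2b, Subread 1.5.2 and featureCounts. How strand, multi-mapped reads and the annotation release were handled is, in the sources used here, not given. Reads shared by paralogs or antisense genes may therefore be split. The authors deposited raw counts per gene, and a normalized signal (counts divided by 1 factor per library, for 16460 genes), used as an alternative. Replicates differed by more than sampling noise (chi-square per gene 7.93 to 192).

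The contrast Male minus Female was fitted in R 4.3.3 by the robust quasi-likelihood test of edgeR 4.0.16, with TMM factors, no covariate and genes kept by filterByExpr (minimum count 10), with Benjamini-Hochberg adjustment over 16377 genes and a threshold of 0.05. Exon length is the length in the deposited tables; coding length is from GENCODE M21. The fit was tested on simulated counts. Alternatives were DESeq2 1.42.0, limma-voom and limma 3.58.1 on the signal, other scalings and filters, the replicate number as a block, and leaving out each library. All 10 members, all other subunits, the 3 most abundant and the called genes of further lists, and Xist with 4 Y-linked genes were to be named. Members and lists were chosen with earlier results of these data known.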

Additional observations from a re-analysis of the deposited data

Results flagged for a closer look

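In groups of 4 libraries, the highest or lowest library was compared with the spread of the others for 30 groups, and 7 stood apart. Chance alone gives about 1 in 20 such groups. In 6 of the 7 it was Male replicate 2, which stood at 703 CPM for Smarca4 (next highest Male library 395 CPM), 42.0 CPM for Smarca2 (29.1), 46.7 CPM for Smarcd2 (38.9), 263 CPM for Smarcc1 (176), 60.0 CPM for Arid1b (34.8) and 428 CPM for Pbrm1 (196). The 6 values come from 1 library and are not independent. Among Female libraries, Arid1b in Female replicate 1 stood at 36.6 CPM, next to 31.5 CPM in the nearest library.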

How the results depend on the processing

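Over all genes, the alternatives called 5 to 9 genes, against 6 as reported (DESeq2 9, no filter 8, limma-voom 7), and members called stayed at 0 in each of them. Each member had 18 alternatives, and its adjusted p ran from 0.835 upward. With the replicate number as a block, 5 genes and 0 members were called. Deviations from the mean of each sex did not run together in libraries with the same number (correlations of -0.47, -0.02, -0.38 and 0.09). Between libraries of unlike number the correlations ran from -0.79 (Male replicate 2 with Female replicate 4) to 0.75 (Male replicate 3 with Female replicate 4). With 4 libraries per sex these correlations cannot tell whether a batch or litter was shared. The block changed no call among the members.

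Leaving out each library in turn moved the log2 fold change, Male minus Female, from -0.022 to 0.40 for Smarca4, -0.13 to 0.092 for Smarca2, -0.030 to 0.096 for Smarcd2, -0.14 to 0.073 for Smarcd3, -0.052 to 0.21 for Smarcc1 and -0.14 to 0.51 for Pbrm1. The sign changed without Male replicate 2 in all 6, and for Smarcd3 also without Female replicate 2 (0.039). Smarcc2 (0.14 to 0.21), Smarcd1 (-0.090 to -0.0048), Arid1a (0.041 to 0.44) and Arid1b (0.011 to 0.39) kept theirs. Without Female replicate 1 and Male replicate 2 together, Smarca4 was at -0.00068, Smarca2 at -0.11, Smarcd2 at -0.023, Smarcc1 at -0.015 and Pbrm1 at -0.017, and with library size alone Smarca2 was at -0.014.

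In plain counts the mean ratios were 12.9 (Smarca4 to Smarca2), 0.372 (Smarcd1 to Smarcd3), 1.37 (Smarcd1 to Smarcd2), 1.92 (Smarcc1 to Smarcc2) and 6.02 (Arid1a to Arid1b). Per kilobase of coding sequence, chosen after seeing the data, they were 12.8, 0.349, 1.41, 2.11 and 6.04. The log2 difference of the ratios between the sexes ran, over single libraries left out, from 0.11 to 0.28 for Smarca4 to Smarca2, -0.14 to 0.15 for Smarcd1 to Smarcd3, -0.16 to -0.029 for Smarcd1 to Smarcd2, -0.20 to 0.018 for Smarcc1 to Smarcc2 and -0.013 to 0.061 for Arid1a to Arid1b. Without Female replicate 1 and Male replicate 2 it was 0.031 for Smarcd1 to Smarcd3 and 0.010 for Smarcd1 to Smarcd2. None passed (lowest adjusted p 0.429, exact permutation test). The cause of these changes was not tested.

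Members had 563 to 24140 counts per library. The parts of counting error and of variation between libraries in their spread were not separated.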
